A study of Mus musculus with 6 samples.

Results

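The Src-family kinase genes Lyn, Blk, Lck, Fyn, Fgr, Src and Yes1 were followed together with 2 genes of their regulators, Csk and Pag1, by RNA sequencing of mouse follicular (Fo) B cells. These 9 genes were taken by symbol from tables of 24346 gene symbols, and all 9 were found. Splenic Fo B cells had been sorted as B220+ CD93- CD21lo CD23hi cells from mice 8 weeks old. One group of 3 libraries came from B6 control mice, called WT here, and the other group of 3 from G9gl homozygous mice. Mice of the second group carry the heavy and light chain genes of G9gl, the germline precursor of an anti-dsDNA antibody from a person with lupus, and the comparison with WT addresses anergy, in which self-reactive B cells persist but respond weakly. Every B cell of these knock-in mice can thus make the same antigen receptor. Whether the 3 libraries of a genotype came from different mice is not stated, so the p-values speak of the spread among libraries, part or all of which could be technical.

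Src-family kinases sit on the inner face of the plasma membrane and start signalling from the B cell receptor (BCR) by phosphorylating the tyrosines of the receptor chains CD79a and CD79b. In B cells Lyn, Blk and Fyn are the members best known for this step, while Lck is best known for the same step in T cells and Fgr for its role in myeloid cells. Lyn also phosphorylates inhibitory receptors, and so works in both directions. The kinase Csk holds the family in check by phosphorylating a tyrosine in the tail of each kinase, the phosphatase CD45, encoded by Ptprc, removes that phosphate, and Pag1 is a membrane adaptor that brings Csk to the membrane.

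The values were FPKM, fragments divided by transcript length and by the mapped total, so that levels of different genes could be set side by side. Each library held an estimated 9270000 to 10800000 fragments. The 10122 genes with 1 FPKM or more in 3 or more libraries were tested with limma on log2(FPKM + 1). Genes are named higher or lower where the Benjamini-Hochberg adjusted p over all these genes was under 0.05. Errors of FPKM are SD (n = 3 libraries per group) and errors of log2 fold changes are standard errors (SE) of the limma fit. All 10 B cell markers examined were present and tested. Their summed level was 9527 to 9883 FPKM in WT and 8790 to 9209 FPKM in G9gl, lower without overlap. In G9gl 2 of the 10 were called higher and 5 lower, beside 11.8% and 11.6% of all tested genes.

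Lck was the member that changed most, with 2.61-fold higher expression in G9gl, and Blk, already the most abundant kinase of the family, was 1.32-fold higher. Fyn was 1.64-fold lower. Lyn, Fgr, Csk and Pag1 did not pass the test, and Src and Yes1 were too low to be tested. Of the 7 members tested, 2 were thus called higher and 1 lower, against 23.4% of all tested genes called in either direction, 11.8% higher and 11.6% lower. The libraries of the 2 groups did not overlap for 3 members, Blk, Lck and Fyn, against 40.8% of all tested genes. The members' median log2 fold change was 0.047, beside -0.0022 over all tested genes.

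**Figure D1:**
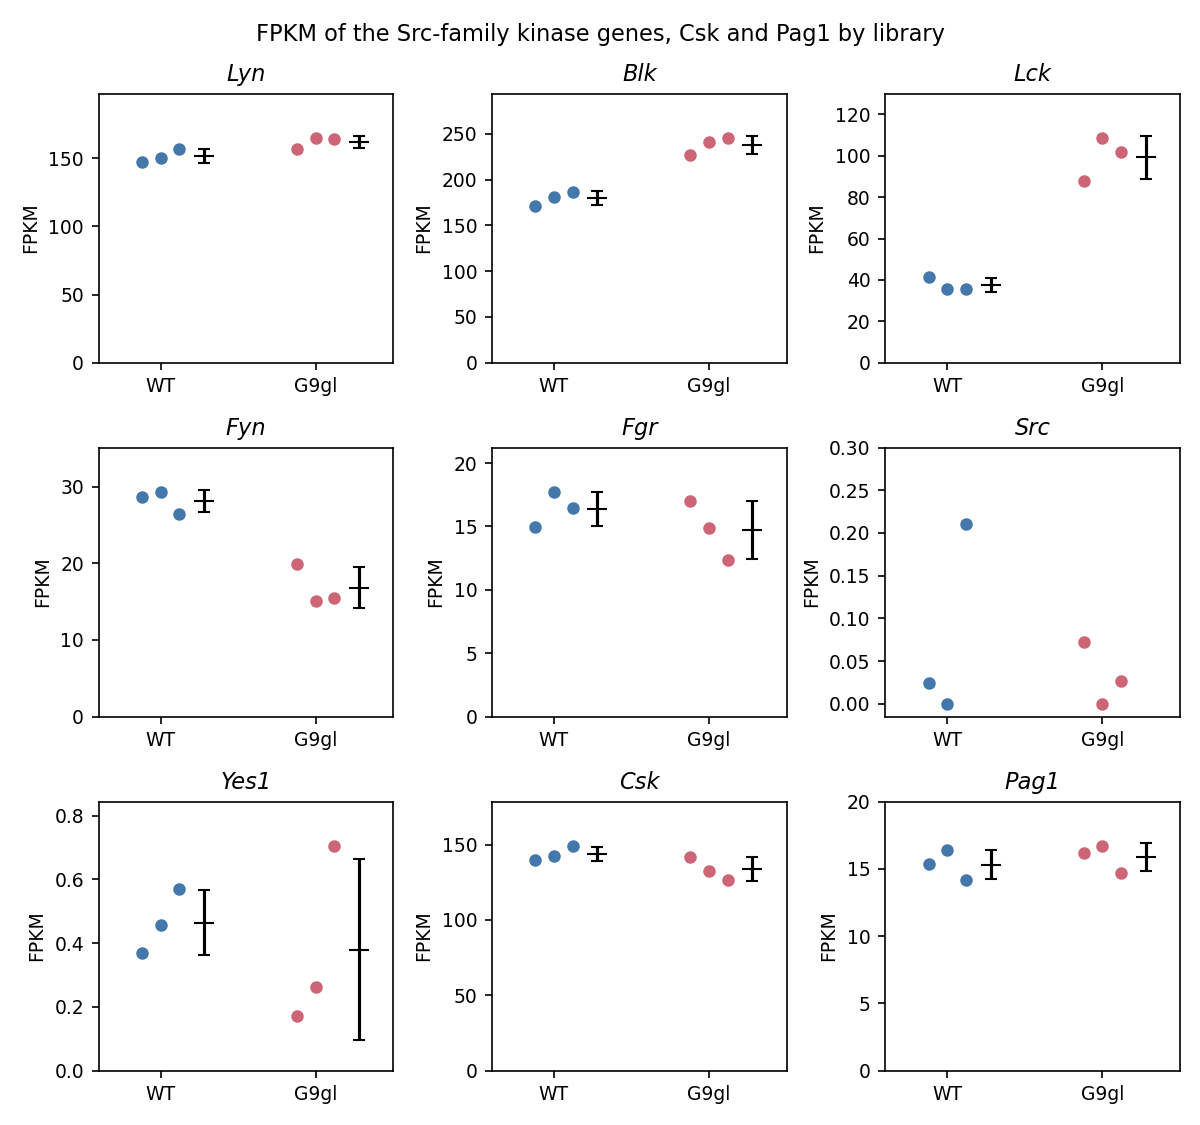
FPKM of each of the 9 genes in each library (points, linear axes from about 0, blue WT and red G9gl), with mean and SD of 3 libraries as black bars, left out for Src because 2 libraries were listed at 0. The G9gl points of Lck and Blk lie above all WT points, those of Fyn lie below them, and the points of the other 6 genes overlap.

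The Lck gene lies on chromosome 4 (129548344 to 129573641, minus strand, mm10) and has 2 RefSeq starts that are 15.3 kb apart, while Fyn lies on chromosome 10 (39368855 to 39565381, plus strand). The DNA just before these starts is shown because these were the genes with the largest rise and the only called fall among the members. The values are summed per gene symbol and do not tell which Lck start was used. Promoter sequences came from RefSeq (GRCm38.p6, the assembly that mm10 denotes), which held 8 starts for 6 of the 9 members. Each sequence runs 5′ to 3′ on the gene's strand within the 250 bases before its start. It stops before any exon annotated in those 250 bases, and capitals mark motif matches on either strand. The Fyn and downstream Lck sequences lie inside the annotated spans of their genes.

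Lck, upstream start, chr4:129573642-129573891: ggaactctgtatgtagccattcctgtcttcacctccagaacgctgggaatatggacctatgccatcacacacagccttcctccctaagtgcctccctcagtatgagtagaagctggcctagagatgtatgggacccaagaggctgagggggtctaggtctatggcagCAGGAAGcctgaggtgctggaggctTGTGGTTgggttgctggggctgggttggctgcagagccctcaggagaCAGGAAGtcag
Lck, downstream start, chr4:129558392-129558622: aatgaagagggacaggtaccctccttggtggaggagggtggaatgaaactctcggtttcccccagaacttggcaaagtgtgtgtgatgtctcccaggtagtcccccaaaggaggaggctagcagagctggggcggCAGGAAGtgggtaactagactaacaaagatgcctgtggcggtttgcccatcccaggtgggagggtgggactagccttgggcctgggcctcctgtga
Fyn, chr10:39369549-39369763: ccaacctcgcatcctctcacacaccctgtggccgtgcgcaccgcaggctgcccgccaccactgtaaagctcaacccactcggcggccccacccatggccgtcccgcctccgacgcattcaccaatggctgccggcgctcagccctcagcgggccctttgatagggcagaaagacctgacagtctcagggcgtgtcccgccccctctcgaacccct

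The motifs searched were ETS (CNGGAAG), EGR (GCGNGGGCG), T-box (AGGTGTGA), RUNX (TGTGGTN), IRF (AAANNGAAA), the octamer (ATGCAAAT) and the TATA box (TATAAA), on both strands of the 250 bases before each start. The upstream Lck window held 2 ETS matches, 83 and 11 bases before the start, and a RUNX match 58 bases before it. The downstream Lck window held an ETS match 115 bases before its start, and the Fyn window held none of the 7 motifs. Among all 32851 RefSeq windows of this length, 26.6% held the ETS letters, 14.0% RUNX, 12.4% TATA, 9.37% IRF, 4.7% EGR, 1.6% the octamer and 1.12% T-box. A match of this kind is a description of the letters and not a binding site.

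Lck encodes the kinase that T cells use for receptor signalling, and its RNA was present in the libraries of both genotypes. WT libraries held 41.3, 35.6 and 35.4 FPKM, and G9gl libraries held 87.9, 108 and 102 FPKM. The lowest G9gl library was more than 2 times the highest WT library, so the groups were far apart. The means rose from 37.4 ± 3.36 to 99.3 ± 10.4 FPKM, a log2 fold change of 1.38 ± 0.091 (limma adjusted p 1.36e-05), which was the 118th largest change in either direction among the 10122 tested genes. About 690 to 2500 fragments per library stood behind these values, by the median length of the annotated coding transcripts.

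Because T cells are the richest source of Lck, the markers of T cells were read in the same libraries. The 4 CD3 chain genes Cd3d, Cd3e, Cd3g and Cd247 summed to 3.25 to 3.92 FPKM in WT and 3.04 to 4.98 FPKM in G9gl, so the groups overlapped while Lck did not. Cd3e, a defining T cell gene, held 0.677, 0.702 and 0.571 FPKM in WT and 0.671, 1.32 and 0.245 FPKM in G9gl. Of the 18 T cell markers none was at 0 in all libraries, 6 were tested and 0 were called by limma, also 0 at an unadjusted p under 0.05. The whole list summed to 332.5 to 357 FPKM in WT and 317.5 to 334 FPKM in G9gl, nearly all of it from Cd2, which B cells also express. Without Cd2, a choice made after its values were seen, the other 17 markers summed to 9.33 to 12 FPKM in WT and 12.5 to 13.5 FPKM in G9gl. Those sums did not overlap either, and they were far below the Lck values. The part of T cell RNA in the Lck result was not tested.

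Summed markers of several other cell types stood apart by genotype as well. Natural killer (NK) cells also express Lck, and their 8 markers summed to 3.2 to 5.41 FPKM in WT and 8.06 to 11.9 FPKM in G9gl. Of these, 2 were tested and both were called higher: Prf1, which encodes the pore-forming protein perforin, rose from 1.73 to 6.44 FPKM and Nkg7, a cytotoxic granule gene, from 1.32 to 2.32 FPKM. Over all tested genes 11.8% were called higher. The other NK cell markers were too low to be tested. By mean of WT and G9gl, Ncr1 went from 0.175 to 0.102 FPKM, Gzma from 0.888 to 0.857 and Klrb1c from 0.181 to 0.395. The groups overlapped for these 3 genes and for Klrk1 and Eomes, and Klre1 was at 0 in all libraries. The 15 macrophage markers summed to 23.9 to 31.6 FPKM in WT and 62.3 to 68.8 FPKM in G9gl. Of 12 tested 10 were called higher and 0 lower, and none of the 15 was at 0 in all libraries. Among those called, Axl was under 1 FPKM in every WT library and passed the filter only through its G9gl values. Csf1r, C1qa and Slc40a1 were under 1 FPKM in part of the WT libraries, so they too needed G9gl values to pass. Of the monocyte and neutrophil markers 9 were in the tables. Their sums were 14.3 to 22.4 FPKM in WT and 50.6 to 68.0 FPKM in G9gl. Of 3 tested, 2 were called higher, S100a8 (2.44 to 13.3 FPKM) and Ly6c2 (12.5 to 38.6 FPKM). S100a9 was not called (limma adjusted p 0.203). Among those not tested, Itgam was lower without overlap (0.674 to 0.332 FPKM). Mpo and Lcn2 were higher without overlap, and Csf3r, Cd14 and Ccr2 overlapped. Dendritic cell markers summed to 1.40 to 1.59 FPKM in WT and 3.09 to 4.32 FPKM in G9gl. The sums of plasma cell markers overlapped between the groups. The part of NK, dendritic, macrophage, monocyte and neutrophil RNA in the Lck result was not tested. In sorted bulk samples a change in how many cells express a gene and a change in RNA per cell cannot be told apart.

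**Figure D2:**
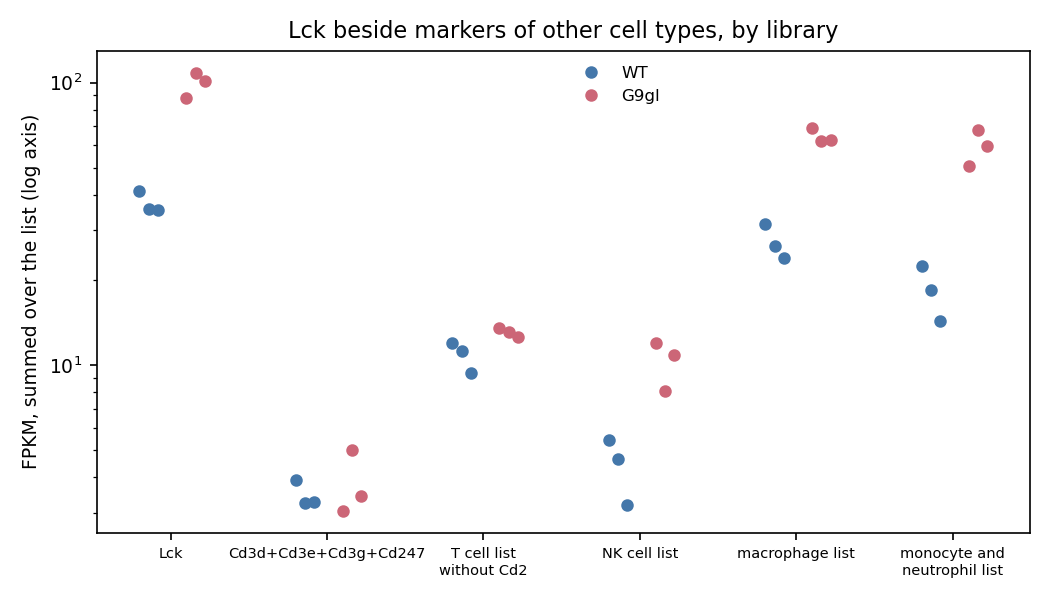
Lck and the summed FPKM of marker lists of other cell types in each library (log axis, blue WT and red G9gl, 1 point per library). Lck runs from 35.4 to 41.3 FPKM in WT and 87.9 to 108 FPKM in G9gl. The sum of the 4 CD3 genes lies between 3.04 and 4.98 FPKM, with overlapping groups. The T cell list without Cd2 runs from 9.33 to 12 FPKM in WT and 12.5 to 13.5 FPKM in G9gl. The NK cell, macrophage, and monocyte and neutrophil sums are also higher in G9gl without overlap.

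Markers of other B cell subsets were read too. The 9 markers of B-1 cells summed to 39.7 to 44.6 FPKM in WT and to 74.9, 48.5 and 48.9 FPKM in G9gl, without overlap. Within these sums Plscr1 rose from 3.24 to 13.2 FPKM. Bhlhe40 held 39.9 FPKM in G9gl replicate 1, beside 24.6 and 23.6 FPKM in replicates 2 and 3. Among the 7 tested, 2 were called higher (Spn and Plscr1) and 1 lower (Ahnak). Over all tested genes 11.8% were called higher and 11.6% lower. By limma 4 of the 7 were higher at an unadjusted p under 0.05, as were 1869 of all 10122 tested genes. The median log2 fold change of the 7 was 0.36. Of the markers not tested, Itgam was lower without overlap (0.674 to 0.332 FPKM) and Ctla4 overlapped. The part of B-1 cell RNA in the Lck result was not tested. Marginal zone markers, whose sums overlapped between the groups, showed 2 of 8 higher (S1pr3 and Plac8) and 3 lower (Cr2, Cd1d1 and Dtx1). Cr2 encodes CD21, which was part of the sort gate.

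Blk, a kinase gene largely restricted to the B lineage, stood highest of the family. It held 172, 181 and 186 FPKM in WT and 227, 241 and 245 FPKM in G9gl. Every G9gl library exceeded every WT library, and the spread within each group was small next to the gap. The means were 179.6 ± 7.40 and 238 ± 9.45 FPKM (log2 fold change 0.40 ± 0.055, limma adjusted p 8.17e-04). Blk (chromosome 14, 63372836 to 63417037) overlaps no other annotated gene.

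Lyn, the kinase gene with both activating and inhibitory roles in B cells, was the second most abundant in both genotypes. Its levels were 147, 150.5 and 157 FPKM in WT and 157, 165 and 164 FPKM in G9gl, and the groups touched, since the lowest G9gl library lay just under the highest WT library. The log2 fold change was 0.096 ± 0.052 with a 95% interval of -0.020 to 0.21 (limma adjusted p 0.213). Lyn (chromosome 4, 3678115 to 3813122) shares exonic sequence with the antisense predicted gene Gm26857, and this kind of library keeps no strand, so reads of the pair cannot be told apart.

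Fyn, which B and T cells both use, was the only member called lower. WT libraries held 28.6, 29.2 and 26.5 FPKM and G9gl libraries 19.9, 15.1 and 15.5 FPKM. No library of one group reached the other, and the G9gl library of replicate 1 lay nearest to WT. The means fell from 28.1 ± 1.45 to 16.8 ± 2.67 FPKM (log2 fold change -0.72 ± 0.11, limma adjusted p 0.00128).

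Fgr, a kinase gene of myeloid cells and B cells, held 15.0, 17.7 and 16.4 FPKM in WT and 17.0, 14.9 and 12.4 FPKM in G9gl, with overlapping groups. Its log2 fold change was -0.15 ± 0.12 with a 95% interval of -0.41 to 0.11 (limma adjusted p 0.384). It was -0.039 without G9gl replicate 3 and -0.25 without G9gl replicate 1, not called in either case. The summed macrophage and monocyte markers, which were higher in the same G9gl libraries, are given above, and their part in this value was not tested. Fgr (chromosome 4, 132974095 to 133001910) lies 3.4 Mb from Lck, and Lyn lies 126 Mb from Lck on the same chromosome.

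Src and Yes1, the widely expressed members of the family, were close to the limit of detection. Src was listed at 0.025, 0 and 0.21 FPKM in WT and at 0.072, 0 and 0.026 FPKM in G9gl, which corresponds to about 0 to 7.4 fragments per library. Yes1 was listed at 0.37, 0.46 and 0.57 FPKM in WT and at 0.17, 0.26 and 0.70 FPKM in G9gl, about 4.4 to 16 fragments. A difference between genotypes was not detectable at this depth for either gene. When no filter on low values was applied, their limma adjusted p were 0.686 and 0.705.

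Of the regulators, Csk was nearly as abundant as Lyn and Pag1 about as low as Fgr. Csk held 139.5, 142 and 149 FPKM in WT and 142, 133 and 126 FPKM in G9gl, where replicates 2 and 3 lay below all WT libraries and replicate 1 lay among them. Its log2 fold change was -0.10 ± 0.059 with a 95% interval of -0.24 to 0.030 (limma adjusted p 0.242). Rescaling the libraries to equal FPKM totals shifted the median log2 fold change of all tested genes to -0.13 and made the calls 730 higher and 2493 lower, against 1191 and 1174. On that scale Csk was called lower with -0.24 (adjusted p 0.0125), 0.11 below the median gene. Pag1 held 15.4, 16.4 and 14.2 FPKM in WT and 16.2, 16.7 and 14.7 FPKM in G9gl, with a log2 fold change of 0.047 ± 0.086 and a 95% interval of -0.15 to 0.24 (adjusted p 0.735). The sign of the Lyn and Pag1 differences turned on the rescaled values, and neither was called there.

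**Figure D3:**
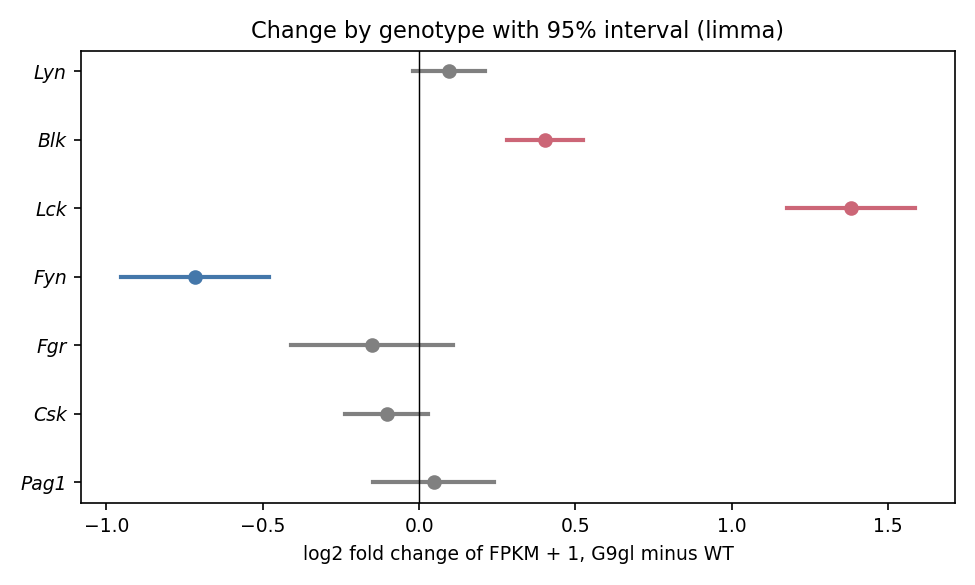
Log2 fold change of FPKM + 1 between G9gl and WT for the 7 tested members, with the 95% interval of the limma fit (red called higher, blue called lower, grey not called). Lck and Blk lie right of 0, Fyn left of it, and the intervals of Lyn, Fgr, Csk and Pag1 cross 0.

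Of 4 other kinase genes of the Src and Csk families 2 were tested, of which 0 were called higher by limma (0 also at an unadjusted p under 0.05) and 1 lower. Over all tested genes 11.8% were called higher and 11.6% lower, and 2 genes are too few to set against these shares. Srms, which encodes a relative of the Src-family kinases, held 2.75, 2.48 and 1.92 FPKM in WT and 0.569, 0.816 and 1.12 FPKM in G9gl, without overlap. Its log2 fold change was -0.88 ± 0.17 (limma adjusted p 0.00468), and it was no longer tested with a filter of 5 FPKM. Matk, which encodes a Csk-like kinase, did not pass (adjusted p 0.165). Frk and Ptk6, the other listed relatives, were too low to be tested.

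By level, the members of WT cells ran from Blk over Lyn, Csk, Lck, Fyn, Fgr and Pag1 to Yes1 and Src. The WT ranges of Lyn and Csk overlapped, as did those of Fgr and Pag1. In G9gl the order was Blk, Lyn, Csk, Lck, Fyn, Pag1, Fgr, Yes1 and Src, and the ranges of Fyn, Pag1 and Fgr overlapped.

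The summed FPKM of the 7 kinase genes was 404, 414 and 422 in WT and 509, 545 and 539 in G9gl. Within this sum the Lck share was 9.07 ± 1.01% in WT and 18.7 ± 1.32% in G9gl, and the Fyn share was 6.80 ± 0.463% and 3.19 ± 0.630%. Blk supplied 43.4 ± 0.829% and 44.8 ± 0.583%, and Lyn 36.6 ± 0.476% and 30.5 ± 0.295%. Shares of a sum are tied to each other, so the Lyn share can be lower without a lower Lyn level.

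**Figure D4:**
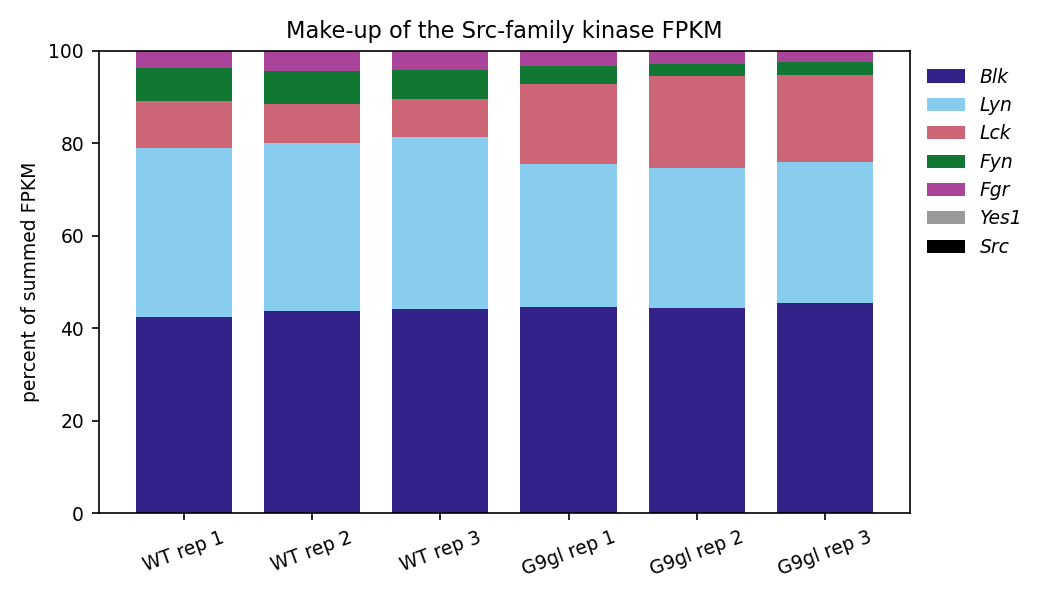
Share of each of the 7 Src-family kinase genes in their summed FPKM, as stacked bars by library from 0 to 100%. Lck widens from 9.07% to 18.7% of the bar on average, Fyn narrows from 6.80% to 3.19%, and Yes1 and Src are too thin to see.

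Ratios within a library do not depend on scaling between libraries. The Lck to Lyn ratio was 0.281, 0.237 and 0.225 in WT and 0.56, 0.658 and 0.619 in G9gl. The Lck to Blk ratio was 0.209 ± 0.028 in WT and 0.417 ± 0.031 in G9gl, so that Lck gained on Blk as well. The Lck to Fyn ratio went from 1.33 ± 0.113 to 6.05 ± 1.45, a 4.54-fold difference of the means. The Csk to Lyn ratio was 0.949, 0.946 and 0.948 in WT and 0.905, 0.806 and 0.77 in G9gl, all lower than in WT. These 4 ratios are among 8 that were computed, and their groups did not overlap. For each the exact two-sided permutation p on the log ratio was 0.1, the smallest that 3 against 3 libraries allow (0.133 after Benjamini-Hochberg adjustment over the 8).

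Genes whose pattern over the 6 libraries was closest to that of Lck were sought by the root mean square difference of log2(FPKM + 1) after each gene was centred on its own mean. These were Pard3b, a cell polarity gene (0.047), Twsg1, which encodes a secreted regulator of bone morphogenetic proteins (0.048), and Loxhd1 (0.089). Loxhd1 held 0.195 to 0.308 FPKM in WT, so it passed the filter only through its G9gl values. Pard3b held 0.886 FPKM in WT replicate 3, so it too needed G9gl values to pass. Twsg1 rose from 15.8 ± 1.15 to 41.4 ± 4.52 FPKM, with G9gl replicate 1 lowest of its group, as for Lck. For Blk the closest were Rfc2, a replication factor C subunit gene (0.021), Stt3b, which encodes a catalytic subunit of the enzyme that attaches N-linked glycans (0.025), and Ddhd2, a phospholipase gene (0.030). The likeness is that of 6 values per gene in shared libraries and is a description.

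The genes beside Lck were also read, a choice made after the Lck values were seen. Within 100 kb of Lck, 14 other genes were in the tables and 9 were tested, of which 4 were called higher and 0 lower, beside 11.8% called higher over all tested genes. These were Marcksl1, which encodes a membrane-bound actin regulator, from 55.2 to 121 FPKM (log2 fold change 1.12, limma adjusted p 2.96e-06), Eif3i, a translation initiation factor gene, Hdac1, a histone deacetylase gene, and Tmem234. The last 3 had log2 fold changes of 0.36, 0.28 and 0.26, well below that of Lck. Near Blk the only tested neighbour, Fam167a, was called higher, and near Fyn 1 of 2 tested neighbours, Traf3ip2, was called lower.

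Phosphatases, ubiquitin ligases and Dok adaptors that act on the kinases or their substrates had 3 of 18 tested called higher, 3 lower and 12 not passing (median log2 fold change 0.023). Each count is near the 11.8% called higher and 11.6% called lower over all tested genes. Ptprj, which encodes the receptor phosphatase CD148 that can activate Src-family kinases, held 25.4, 28.9 and 23.0 FPKM in WT and 8.64, 7.91 and 7.39 FPKM in G9gl. That was a 2.98-fold decrease without overlap (log2 fold change -1.57 ± 0.10, limma adjusted p 1.14e-05), beside which Ptprc, the gene of CD45, went from 276 ± 13 to 252 ± 14.7 FPKM and did not pass (adjusted p 0.145). Cblb, a ubiquitin ligase gene that dampens antigen receptor signals, fell 1.74-fold and the lipid phosphatase gene Inpp5d 1.17-fold, a call that was lost without WT replicate 2, G9gl replicate 2 or G9gl replicate 3. Ptpn1 and Ptpn18, both phosphatase genes, rose 1.41-fold and 1.26-fold, and Ubash3b, which encodes a phosphatase of the Sts family, rose 1.53-fold. Ptpn6, the gene of SHP-1, was the most abundant of the list at 1095 ± 64.3 FPKM in WT and 1171 ± 53.4 FPKM in G9gl (limma adjusted p 0.265). The lower count became 5 on the rescaled values, where Ptprc and Cbl were added.

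The list of membrane adaptors of the Pag1 kind also held Ezr and Slc9a3r1, genes of the bridge between Pag1 and ezrin. Of its 7 tested genes 0 were called higher and 1 lower, with 6 not passing (median log2 fold change 0.050). Over all tested genes 11.8% were called higher and 11.6% lower. The gene called lower was Ezr, which encodes ezrin, a linker between membrane proteins and actin to which Pag1 is bridged. Its levels fell from 378 ± 18.0 to 244 ± 8.90 FPKM, 1.54-fold (limma adjusted p 6.81e-05). The bridging gene Slc9a3r1 held 67.5 ± 4.21 and 59.7 ± 2.42 FPKM (adjusted p 0.086) and the adaptor gene Sit1 13.7 ± 2.87 and 9.14 ± 2.45 FPKM (adjusted p 0.0707). A second call appeared without WT replicate 1 (Slc9a3r1) and without WT replicate 3 or G9gl replicate 1 (Sit1), which made 2 lower, and both genes were called on the rescaled values. By limma 0 were higher at an unadjusted p under 0.05 too.

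The receptor chains, coreceptors, kinases and adaptors that the kinases phosphorylate or work beside had 4 of 26 tested called higher, 9 lower and 13 not passing (median log2 fold change -0.13), beside 11.8% higher and 11.6% lower over all tested genes. The higher count is near that share. Vav3, a guanine nucleotide exchange factor gene, rose from 7.37 ± 0.349 to 18.2 ± 2.39 FPKM, 2.28-fold (limma adjusted p 6.87e-05), while its relative Vav2 fell from 31.9 ± 0.728 to 18.6 ± 4.86 FPKM (adjusted p 0.00504). Rasgrp3, a Ras activator gene, rose 1.43-fold and Tec, a kinase gene related to Btk, 1.38-fold. Among the genes that fell, Cr2, the gene of the coreceptor CD21, went from 131 ± 7.20 to 61.2 ± 2.42 FPKM, and Prkcb, a protein kinase C gene, fell 1.53-fold. Of the receptor chains, Cd79a was called lower by 1.13-fold (adjusted p 0.0392) and Cd79b did not pass (adjusted p 0.677). Syk, the kinase gene next in the chain, held 216 ± 15.6 and 192.5 ± 5.91 FPKM (adjusted p 0.0867). The lower count was 5 without WT replicate 2 or WT replicate 3, where Cd79a was among the calls lost, and 17 on the rescaled values. The Cd79a call was also lost without G9gl replicate 2 or 3 and with no filter on low values.

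The list of inhibitory receptors whose tyrosine motifs Src-family kinases phosphorylate had 5 of 12 tested called higher, 4 lower and 3 not passing. The median log2 fold change was 0.18. Over all tested genes 11.8% were called higher and 11.6% lower. Lilrb4a rose from 0.891 ± 0.133 to 16.1 ± 0.411 FPKM and Cd72 from 461 ± 20.2 to 944.5 ± 30.5 FPKM, with limma adjusted p of 2.54e-07 and 2.73e-06. Lilrb4a was under 1 FPKM in every WT library, so it passed the filter only through its G9gl values. Myeloid cells also express Lilrb4a, and their summed markers, which were higher in G9gl, are given above. Their part in the Lilrb4a value was not tested. Cd22, a sialic acid-binding receptor gene, rose 1.19-fold, Fcgr2b, the inhibitory Fc receptor gene, 1.17-fold, and Btla 1.36-fold. Pirb and Siglecg, both genes of receptors that recruit phosphatases, fell 1.67-fold and 1.33-fold, and Pecam1 and Ceacam1 were lower as well. On the rescaled values 3 were called higher, Cd22 and Fcgr2b having been lost. The Cd22 call was also lost without WT replicate 1, with quantile normalization and with no filter on low values, and the Fcgr2b call without WT replicate 3.

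**Figure D5:**
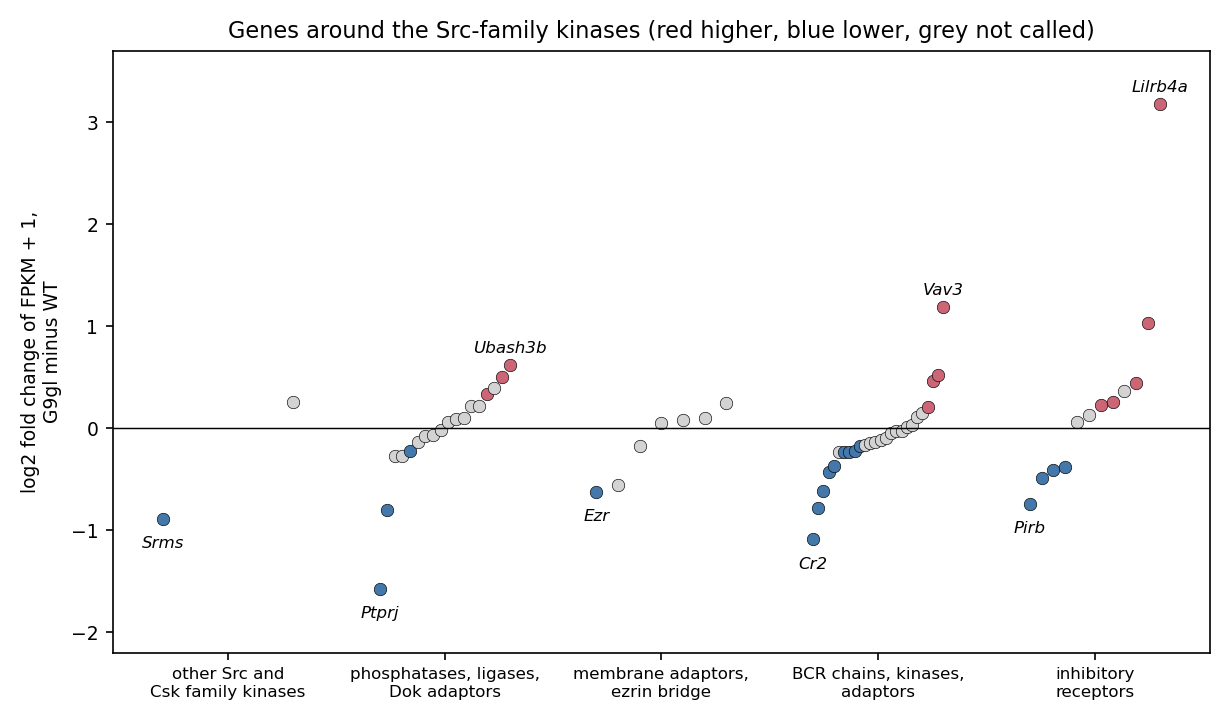
Log2 fold change of FPKM + 1 (G9gl minus WT) of each tested gene in 5 lists around the kinases, 1 point per gene, in order of value within a list (red called higher, blue called lower, grey not called). Ptprj lies lowest in its list at -1.57. Lilrb4a, which passed the filter only through its G9gl values, lies highest of all at 3.18.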

How the data were processed

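RNA was measured in 6 libraries of sorted Fo B cells, 3 WT and 3 G9gl, grouped by their titles. Per the labels' protocols, a SMART-Seq HT kit gave the cDNA and a Nextera kit the libraries, a method that keeps no strand. Per the submitters' processing notes, the tools were Cufflinks 2.2.1, SAMtools 0.1.19, TopHat2 2.0.13 and Bowtie2 2.2.3, on mm10, with the annotation, filters and library scaling not given in the sources used here. Values in FPKM, 1 per gene symbol and library, were deposited by the authors. They are relative to all mapped fragments, so abundant transcripts that change shift other genes.

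FPKM totals were 603054 to 671533 per library. Depth was estimated from the FPKM that 1 fragment gives in genes with a single GENCODE vM21 transcript of at least 1500 bases. It was the median of FPKM times length within a fixed range of values, which also bounds the estimate. Within 0.2 of a whole fragment lay 82.8 to 89.8% of their low values. No pair of libraries shared more than 2 identical values other than 0.

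The test was that of limma 3.58.1, run under R 4.3.3 (lmFit, eBayes with a trend, genotype as the only term, pseudocount 1), checked on simulated data. The log2(FPKM + 1) scale understates fold changes of low genes. The members and gene lists were chosen with earlier results of these data known, and lists carry no test. All 9 members were named, with up to 4 called genes of smallest p from each list and the 3 nearest patterns to Lck and Blk. Not every gene examined is reported here. Other genes named were chosen after their values were seen. There were 16 alternatives: other pseudocounts, filters and scalings, library weights, a robust fit, the replicate number as a block, and each library left out.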

Additional observations from a re-analysis of the deposited data

How the results depend on the processing

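Lck, Blk and Fyn were called in the same direction under all 16 alternatives, with log2 fold changes of 1.26 to 1.47, 0.27 to 0.44 and -0.86 to -0.65 and limma adjusted p of at most 6.92e-04, 0.00705 and 0.0107. Of 112 values for the 7 tested members 108 kept direction and call. Of the 30 called genes of the other lists 22 kept their call wherever they were tested, and Inpp5d, Blnk, Cd79a, Dapp1, Plcg2, Shc1, Cd22 and Fcgr2b lost it under 2 to 8 alternatives. Rescaling to equal FPKM totals gave Lyn -0.037 and Pag1 -0.080, neither called, and made 2 members lower (Csk was added). On that scale 730 of all tested genes were higher and 2493 lower (22.6% of calls higher against 50.4%). Lower there were 5 phosphatase or ligase genes, 3 adaptor or ezrin bridge genes and 17 receptor-proximal genes, and 3 inhibitory receptors were higher. Such a rescaling covers only the genes in the tables. Quantile normalization made 14 receptor-proximal genes lower and library weights 2 adaptor or ezrin bridge genes. A filter of 5 FPKM left 0 related kinases lower, since Srms was then not tested. Leaving out each library in turn gave 718 (without WT replicate 2) to 1172 lower among all tested genes. It gave 1 to 2 lower adaptor or ezrin bridge genes and 5 to 8 lower receptor-proximal genes. The Pag1 value was then -0.0040 (without WT replicate 3) to 0.097. The cause of these moves was not tested.

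With the replicate number as a block, 1044 genes were higher and 988 lower, and the members kept 2 higher and 1 lower. Deviations of same-numbered libraries correlated by 0.099, -0.069 and 0.021, so the numbers do not show a pairing. Depth limits Src and Yes1, and 3 libraries per group limit the precision of every member.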
